A study of Tupaia belangeri with 15 samples.

Results

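The CSRNP family and a set of immediate early genes were followed through the retina of the tree shrew (TS, Tupaia belangeri) at 3 stages of life. The 10 members were taken by gene name from the feature lists: CSRNP1, CSRNP2, CSRNP3, FOS, FOSB, JUN, JUNB, EGR1, ATF3 and NR4A1, each a single named feature among 83605. CSRNP3 had been picked because its level fell in cones, so its values there are given as a description without a test. The other 9 members came with it by name.

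CSRNP proteins (cysteine- and serine-rich nuclear proteins) are nuclear factors that can activate transcription, and CSRNP1 is itself an inducible gene. Immediate early genes are transcribed within minutes of a stimulus, without the need for new protein. FOS and FOSB pair with JUN or JUNB to form the AP-1 factor, EGR1 is a zinc finger factor, NR4A1 is an orphan nuclear receptor and ATF3 is a stress-induced partner of the JUN proteins. In neurons, including those of the retina, their RNA is widely used as a sign of recent activity or stress.

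Single-nucleus RNA libraries of 15 retinas were available, 5 each labelled Infancy, Mature and Senile, from untreated animals of no stated genotype. Infant and mature animals came from 1 animal centre and senile animals were bought from another institute, so stage and source cannot be told apart in any comparison with the senile stage. The study used 5 animals per stage, gives age ranges by stage and refers to its supplement for details of individual animals. The labels tie no animal, age or sex to a retina, so p-values measure the spread between these samples. Nuclei were isolated from retinas frozen in liquid nitrogen and thawed.

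The libraries held 13429873 to 58734300 unique molecular identifiers (UMIs, single captured RNA molecules) in 4269 to 9856 barcodes. Of 120437 barcodes, 119765 passed limits on genes and mitochondrial UMIs, and 70827 were assigned to 9 classes by marker genes. These comprised 14640 cone-like nuclei (cones below, and likewise for the others), 870 rods, 21184 bipolar cells (BCs), 1186 horizontal cells (HCs), 20372 amacrine cells (ACs), 5111 retinal ganglion cells (RGCs), 5545 Müller cells, 1216 astrocytes and 703 microglia. Of the marker genes, CNGA1, GAD2 and SLC32A1 were listed at 0 UMIs in every library, and rods and ACs rest on their other markers. HCs rest on 3 markers, none of which was among the leading 10 features of the class. The file headers give Cell Ranger 6.1.2 for 7 retinas (Infancy 1 to 3, Mature 1 and 2, Senile 1 and 2) and 7.0.1 for the other 8. The retinas of version 7.0.1 were also deeper, with medians of 2268 to 5611 UMIs per barcode against 1461 to 3068. Pairs of libraries shared at most 0.422% of the barcodes of the smaller one. Infancy 2 stood apart in its cones, as described below, and results that rest on it are given with and without it.

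Levels are UMIs of a gene scaled to a total of 1000000 UMIs of the class in a retina (CPM), wherever 10 or more nuclei of the class were present. They were not divided by gene length, so levels are compared within a gene only. Over all kept nuclei, CSRNP3 had 129415 UMIs, CSRNP2 5893, EGR1 2430, JUN 1861, FOS 1778, NR4A1 1153, JUNB 1104, CSRNP1 1018 and FOSB 135. ATF3 was listed at 0 in all 15 libraries. Markers that the tissue uses, such as GAD2, were at 0 in the same files, so no level is given for ATF3. After the filter on low counts, CSRNP3 was retained in all 9 classes, CSRNP2 in 4, FOS, EGR1 and JUN in 3 each, and CSRNP1, NR4A1 and JUNB in 1 each. FOSB passed only in the sum of all nuclei, and ATF3 nowhere.

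CSRNP3 was found in every class of every retina with at least 10 nuclei of that class. Its mean level was 407 ± 40.6 CPM (SD, n = 15) in ACs, 337 ± 44.3 in RGCs and 320 ± 64.7 in BCs. HCs had 217 ± 55.04 CPM of CSRNP3, rods 215 ± 68.1 (n = 14), Müller cells 165 ± 29.8, astrocytes 149 ± 41.6, microglia 117 ± 64.0 and cones 69.5 ± 34.7. ACs, RGCs and BCs thus had the highest means, and the lowest was that of cones, whose values chose the gene. Bipolar markers were also counted in the other classes, at 2511 CPM in microglia, 2031 in Müller cells, 1845 in RGCs and 1463 in rods. They stood at 1454 CPM in HCs, 1420 in astrocytes, 1156 in ACs and 666 in cones. The part of such RNA in the CSRNP3 levels of these classes was not tested. ACs exceeded RGCs in 15 of 15 retinas, by 0.27 ± 0.10 (SD) on the scale of log2(CPM + 1) (2-sided exact sign-flip test over retinas, p = 6.1e-05, the smallest possible; adjusted p = 0.00055 over the 9 members with UMIs). Among the steps down the order, that from BCs to HCs also held (0.58 ± 0.39, 15 of 15 retinas, adjusted p = 0.0022 over 72 neighbouring pairs of all members). The other neighbours from RGCs down to microglia did not differ beyond their spread, and the step from microglia to cones (0.71 ± 1.30, higher in 11 of 15 retinas) is given without a test.

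**Figure D1:**
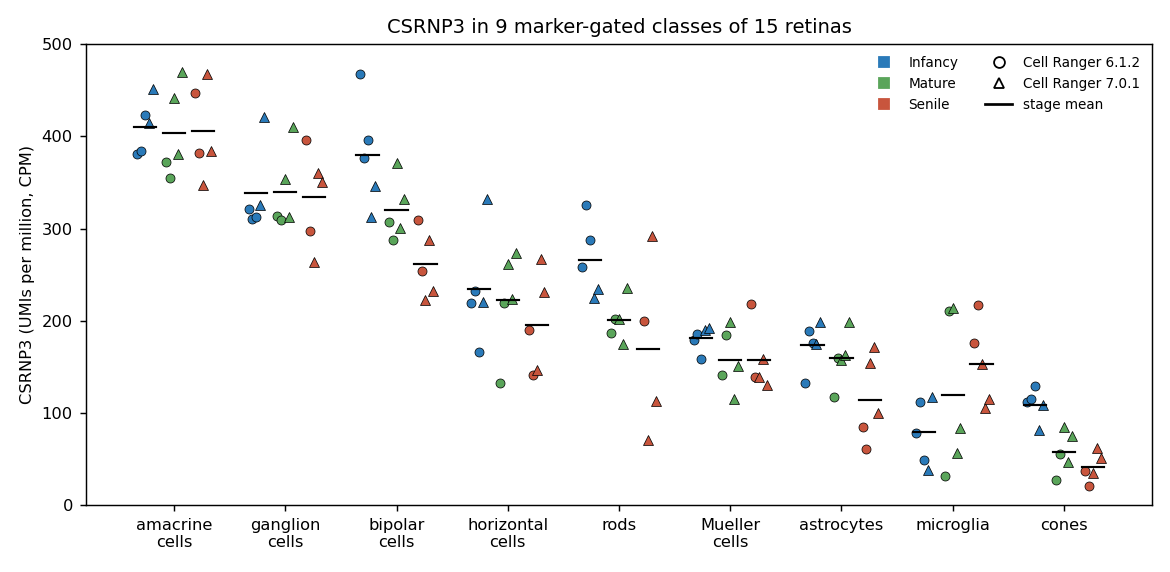
CSRNP3 in 9 marker-gated classes. The y axis gives CPM, each point is 1 retina, colours give the stage, symbols the Cell Ranger version and bars the stage mean. Points of ACs lie between 347 and 469 CPM in all stages, whereas those of cones run from 81.7 to 129 CPM in infancy and from 20.9 to 62.1 CPM in the senile stage.

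In cones, the values that chose CSRNP3 were 112, 115, 129, 81.7 and 108 CPM in Infancy 1 to 5. In Mature 1 to 5 they were 27.8, 56.0, 85.0, 46.7 and 74.8 CPM. In Senile 1 to 5 they were 37.1, 20.9, 34.7, 62.1 and 51.4 CPM. Every senile retina lay below every infant one, and Mature 3 was the only mature retina above an infant one. This complete separation was shared by 0.529% of the 20803 features with 50 or more UMIs in cones. The means were 109 ± 17.3 (SD, n = 5), 58.0 ± 22.7 and 41.2 ± 15.9 CPM, and the fitted change from infancy was -0.93 on the log2 scale at the mature and -1.48 at the senile stage. Within the retinas of version 6.1.2 the means were 119 (n = 3), 41.9 (n = 2) and 29.0 CPM (n = 2), and within those of 7.0.1 they were 95.04 (n = 2), 68.8 (n = 3) and 49.4 CPM (n = 3).

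RNA of marker genes of other neurons was counted in the cone profiles, and whether cones made some of it was not tested. The 7 bipolar markers summed to 330 to 1004 CPM in the cones of infant retinas, 138 to 1318 CPM in mature and 71.3 to 1580 CPM in senile ones, against 13153 to 20831 CPM in BCs themselves. The largest sums among senile and among infant retinas were in Senile 4 and Infancy 5. In cones without a single UMI of a bipolar, amacrine, ganglion or horizontal marker, CSRNP3 was lower in every retina that had such nuclei, at 85.6 ± 21.7 CPM (SD, n = 5) in infancy, 35.1 ± 12.1 (n = 4) at maturity and 20.4 ± 4.89 (n = 5) in the senile stage. These nuclei carried 330, 142 and 106 CSRNP3 UMIs in all, and none were left in Mature 5. The shares kept in the other retinas were uneven, from 2.24% of cones in Mature 3 (26 nuclei with 6 CSRNP3 UMIs) to 65.0% in Senile 2 (867 nuclei with 27 UMIs). Infancy 5 kept 2.31% (11 nuclei with 5 UMIs). A nucleus with fewer UMIs is likelier to hold no marker UMI, so the restriction also selects by depth, which was not matched. Median UMIs per barcode were lowest in Senile 2 (1461) and highest in Mature 5 (5611). CSRNP3 in the nuclei kept was at 14.3 to 27.6 CPM in senile and 47.0 to 98.9 CPM in infant retinas. The difference was -1.998 against -1.46 on the scale of log2(CPM + 1) for all cones. This restriction was chosen after the data had been seen and uses the same cones that chose the gene, so it is no separate support.

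Among the classes where CSRNP3 was tested, its senile change passed the threshold in BCs. Infancy 1 to 5 had 468, 377, 396, 313 and 346 CPM of CSRNP3. Mature 1 to 5 had 307, 288, 371, 301 and 332 CPM. Senile 1 to 5 had 310, 254, 223, 287 and 232 CPM. All senile retinas were below all infant ones, although Senile 1 and Infancy 4 nearly touched, and 0.544% of 21697 features in BCs showed the same separation. The senile level was lower by -0.63 ± 0.13 on the log2 scale (SE; edgeR quasi-likelihood test, adjusted p = 0.027). This was the only call among 33 tests of a member in a class or in all nuclei, with CSRNP3 in cones left out (DESeq2 added EGR1 in cones and NR4A1 in cones and in all nuclei, described below), and 1.06% of the 15270 features tested in BCs were called (0.138% as lower). Of the 33 tests, 9 would be under 0.05 without adjustment. These are not separate, since CSRNP3, EGR1 and NR4A1 recur in all nuclei, which include the classes. FOS, EGR1 and NR4A1 in cones moved with Infancy 2, as described below. The share of all features under 0.05 unadjusted is not given here, so the 9 are not read as an excess. In the other classes the share of features called was 1.24% in cones, 0.567% in rods, 0.231% in HCs, 0.895% in RGCs, 0.935% in ACs, 0.769% in Müller cells, 0.539% in astrocytes, 0.0% in microglia and 0.977% in all nuclei. The call was lost without any one of Infancy 1, 2 or 3 or Senile 2, 3 or 5 (adjusted p from 0.071 to 0.094), with values from -0.54 to -0.71 over all 15 retinas left out in turn. Within version 6.1.2 the value was -0.66 (adjusted p = 0.081) and within 7.0.1 it was -0.46 (adjusted p = 0.58). The summed level of 7 cone markers inside BCs also differed, with 86.5 to 227 CPM in infant and 244 to 820 CPM in senile retinas. The part of this in the CSRNP3 value was not tested. The gene was chosen on the same retinas, so BCs are not independent of the observation in cones.

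In the remaining classes CSRNP3 did not pass, although some fitted values were larger than in BCs, and differences between classes were not tested. Its senile change was -0.77 ± 0.25 (SE) in astrocytes (adjusted p = 0.28), -0.71 ± 0.29 in rods (adjusted p = 0.48), -0.31 ± 0.16 in Müller cells (adjusted p = 0.78) and -0.30 ± 0.24 in HCs (adjusted p = 0.96). In ACs, where the gene was highest, the stage means were 410 ± 29.0, 404 ± 49.0 and 405 ± 50.1 CPM (SD, n = 5 each), with a fitted change of -0.12 ± 0.10 (adjusted p = 1.0). In RGCs the stage means were 338 ± 46.9, 340 ± 43.3 and 334 ± 52.7 CPM (fitted change -0.15 ± 0.13, adjusted p = 1.0). In microglia the value had the other sign, with 79.2 ± 35.6 CPM in infancy and 154 ± 45.5 in the senile stage (0.82 ± 0.50 on the log2 scale, adjusted p = 0.83), on 45 and 50 UMIs. In the sum of all nuclei, where fewer cells of a type and less RNA per cell cannot be told apart, the senile change was -0.46 ± 0.14 (adjusted p = 0.26).

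**Figure D2:**
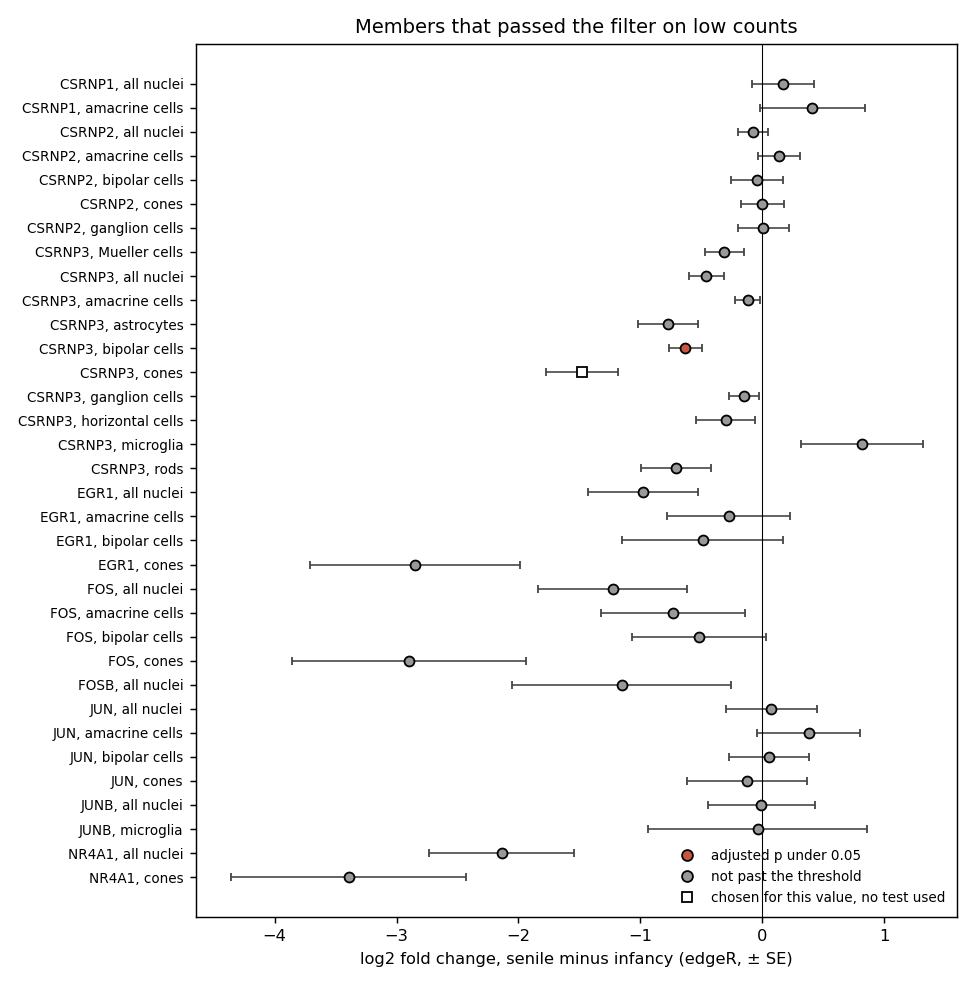
Fitted senile minus infancy log2 fold changes of the members that passed the filter on low counts, with their SE (edgeR). Rows are a gene in a class or in all nuclei. Among the tested values, CSRNP3 in BCs (filled red, -0.63) is the only one past the adjusted threshold. CSRNP3 in cones (open square) was fitted with the rest but chosen for its fall there, so it is shown without a test. The wide bars on the left belong to NR4A1, FOS and EGR1 in cones.

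CSRNP2 passed no stage contrast. In cones it ranged from 8.63 to 13.8 CPM over the 15 retinas, with stage means of 10.2 ± 1.48, 11.3 ± 1.78 and 10.8 ± 1.59 CPM (SD, n = 5 each). Its fitted senile change was 0.00 ± 0.18 (SE) in cones, -0.04 ± 0.21 in BCs, 0.14 ± 0.17 in ACs and 0.01 ± 0.21 in RGCs, and no value passed. RGCs, ACs and BCs had the most CSRNP2, at 15.5 ± 3.19, 14.9 ± 2.68 and 13.8 ± 2.86 CPM (SD, n = 15), and these did not differ from each other beyond their spread. BCs exceeded cones (0.32 ± 0.24 on the scale of log2(CPM + 1), 14 of 15 retinas, adjusted p = 0.011 over the 72 pairs).

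CSRNP1 was rare, with 1.54 to 3.65 CPM over the retinas in all nuclei. The senile retinas had 2.98, 3.65, 2.85, 2.30 and 1.92 CPM of CSRNP1 and the infant ones 2.55, 2.30, 2.53, 2.38 and 1.54 CPM, so the groups overlapped (0.17 ± 0.25 on the log2 scale, SE, adjusted p = 1.0). Its highest class was microglia, where 5 of 15 retinas held no UMI and Infancy 3 reached 82.3 CPM, and it did not exceed the next class (10 of 15 retinas, adjusted p = 0.30).

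Among the immediate early genes, FOS, EGR1 and NR4A1 were high in the cones of Infancy 2. FOS was 3.30, 73.1, 6.07, 1.58 and 1.93 CPM in the cones of Infancy 1 to 5. It was 0.505, 0.639, 1.01, 1.91 and 1.38 CPM in those of Mature 1 to 5, and 4.18, 3.42, 0.846, 2.00 and 1.43 CPM in those of Senile 1 to 5. Infancy 2 alone was high, with 288 of the 413 FOS UMIs in cones, and the other 4 infant retinas overlapped with the older ones.

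EGR1 was 4.12, 49.0, 9.29, 8.17 and 4.94 CPM in the cones of Infancy 1 to 5. In Mature 1 to 5 it was 0.126, 4.68, 3.03, 0.819 and 1.38 CPM, and in Senile 1 to 5 it was 1.33, 3.42, 0, 3.34 and 2.70 CPM. Here Infancy 2 was again the highest, but each of the other infant retinas also lay above every senile one. As for CSRNP3, 0.529% of the features in cones showed this.

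NR4A1 was 5.22, 82.0, 13.9, 13.8 and 6.22 CPM in the cones of Infancy 1 to 5, 1.26, 9.79, 1.21, 0.819 and 1.38 CPM in those of Mature 1 to 5, and 6.08, 3.04, 0, 0.334 and 1.75 CPM in those of Senile 1 to 5. Senile 1 and Mature 2 reached into the infant range. Within version 7.0.1 the 2 infant values of NR4A1 lay above the 3 mature and the 3 senile ones, as in 4.89% of the features in cones, and within 6.1.2 they overlapped. Cones held 68.4% of the NR4A1 UMIs of the 9 classes and 72.7% of those of FOSB, against 25.2% of all UMIs, and 323 of the 648 NR4A1 UMIs in cones came from Infancy 2. Without that retina, cones held 55.1% of the NR4A1 UMIs and 65.8% of those of FOSB, but 17.6% of those of EGR1 and 16.4% of those of FOS, against 25.3% of all UMIs. Infancy 4 and Mature 2 then held 113 and 46 of the 325 NR4A1 UMIs in cones, and Mature 2 held 17 of the 50 of FOSB. Over all 15 retinas, cones had the highest mean of log2(CPM + 1) for NR4A1 and FOSB. They did not pass against the next class (2-sided exact sign-flip test). NR4A1 was higher than in BCs in 11 retinas (adjusted p = 0.13) and FOSB higher than in RGCs in 7 (adjusted p = 0.12).

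The fitted senile changes in cones were -2.90 ± 0.96 (SE) for FOS, -2.85 ± 0.86 for EGR1 and -3.39 ± 0.97 for NR4A1, and none passed in the fit on stage alone (edgeR, adjusted p = 0.28, 0.20 and 0.15, where 1.24% of the 15259 features were called). Without Infancy 2 these values became -0.44 (adjusted p = 1.0), -1.65 (0.76) and -2.10 (0.62). The mature changes were -4.09 ± 1.05 for FOS, -2.86 ± 0.85 for EGR1 and -3.02 ± 0.94 for NR4A1 (adjusted p = 0.095, 0.21 and 0.24), and became -1.61, -1.66 and -1.69 without Infancy 2 (adjusted p = 0.46, 0.67 and 0.75). DESeq2 called EGR1 and NR4A1 in the senile comparison of cones (adjusted p = 0.036 and 0.013), where it called 2.16% of the features, and EGR1 in the mature one (adjusted p = 0.036). In the sum of all nuclei, the senile change of NR4A1 was -2.14 ± 0.59 (SE, adjusted p = 0.16) in edgeR. DESeq2 called it there (adjusted p = 0.014, with 1.85% of features called), but not without Infancy 2 (-1.18, adjusted p = 0.24). NR4A1 in cones also passed in edgeR with the Cell Ranger version as a term (senile, -3.14, adjusted p = 0.042, with 1.8% of features called) and with the replicate number as a block (mature, -3.12, adjusted p = 0.0496, with 1.09% called). NR4A1 entered the filtered fits of cones through the infant retinas, all 5 at 5.22 CPM or more. Among the older ones only Mature 2, Senile 1 and Senile 2 lay above 1.75 CPM. Its p-values in the filtered fits carry this limit. Without the filter on low counts, edgeR called EGR1 and NR4A1 in the senile comparison (adjusted p = 0.035 and 0.016) and all 3 genes in the mature one (adjusted p from 0.0055 to 0.046), where it called 0.549% and 0.39% of 51046 features. Without Infancy 2, none of these calls remained. In cones the adjusted p was then 0.58 and 0.40 for the senile changes of EGR1 and NR4A1 in DESeq2, and 0.51 for the mature change of EGR1. It was 0.16 for NR4A1 with the version as a term, 0.25 with the block, and 0.27 to 0.71 for the 5 calls made without the filter. The fitted changes of all 3 genes therefore moved by over 1.5 times with 1 retina.

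**Figure D3:**
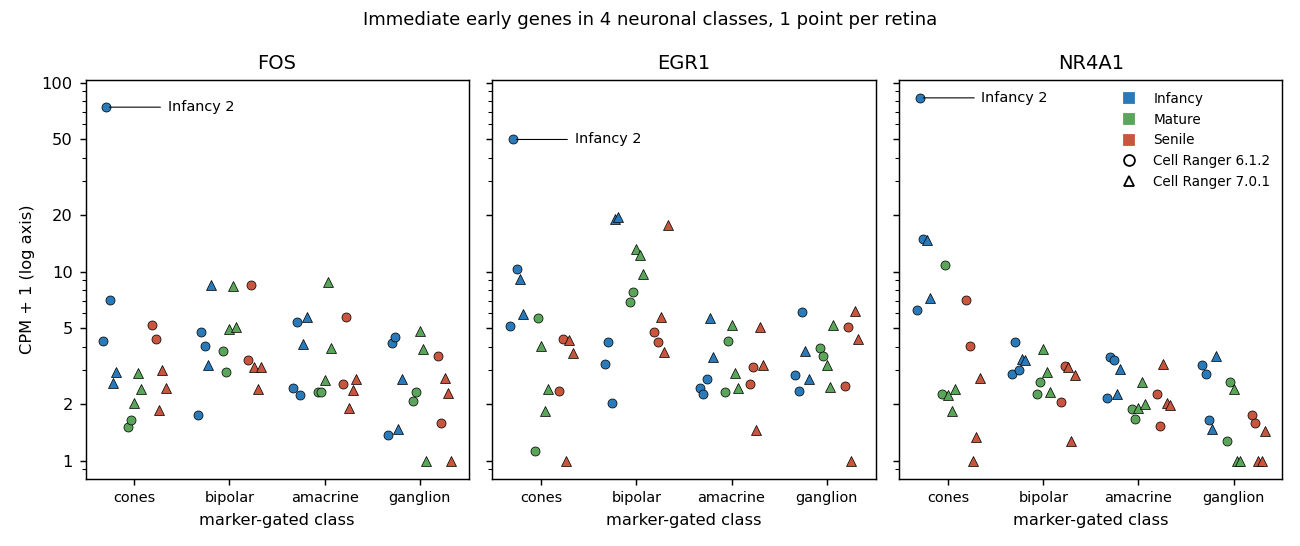
FOS, EGR1 and NR4A1 in cones, BCs, ACs and RGCs. The y axis is CPM + 1 on a log scale, each point is 1 retina, colours give the stage and symbols the Cell Ranger version. The cones of Infancy 2 stand at 73.1, 49.0 and 82.0 CPM, and no other point in these 4 classes exceeds 18.4 CPM. Rods and astrocytes, not plotted, held higher values (EGR1 70.4 CPM in rods of Infancy 2, FOS up to 93.1 CPM in astrocytes).

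In Infancy 2, the RNA was spread over many cones and was found in smaller shares of BCs, ACs and RGCs. FOS had at least 1 UMI in 229 of 1078 cones (21.2%, exact 95% binomial interval 18.8 to 23.8%, for counting error only), EGR1 in 164 (15.2%, 13.1 to 17.5%) and NR4A1 in 250 (23.2%, 20.7 to 25.8%). In the same library, FOS was found in 0.819% of 1587 BCs, 1.27% of 1570 ACs and 1.74% of 632 RGCs. NR4A1 was found in 0.567% of these BCs, 0.764% of the ACs and 1.11% of the RGCs. The median depth was 3032 UMIs in cones, 1486 in BCs, 2531 in ACs and 5438 in RGCs. In rods of Infancy 2, EGR1 was at 70.4 CPM on 8 UMIs, above its level in the cones of this retina, and rods of Infancy 3 had 29.8 CPM on 3 UMIs. EGR1 was found in 7 of the 50 rods of Infancy 2 (exact interval 5.82 to 26.7%), where FOS and NR4A1 were found in none. At a median of 1664 UMIs per rod, this allows up to 7.11% of rods with a UMI (upper bound of the exact interval) and sets no limit on the rods that express these genes.

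After each cone had been thinned to 1500 UMIs, the share with FOS was 10.7% in Infancy 2 (9 cones were shallower) and 0 to 0.857% in the other 14 retinas. The thinned share with NR4A1 was 12.0% in Infancy 2 and 0 to 2.13% elsewhere, and that with EGR1 was 7.86% against 0 to 1.32%. Senile 2 lost 542 of its 1333 cones to this limit, and the other retinas at most 43. Infancy 2 was the highest retina for all 3 genes among cones thinned to this number, which matches UMIs per nucleus and no other property of the libraries.

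At least 1 of FOS, EGR1 and NR4A1 was found in 498 of the 1078 cones of Infancy 2 (46.2%) and in 612 of 13562 cones of the other retinas (4.51%). Single nuclei held at most 5 UMIs of any of them. NR4A1 was found in 28.4% of the FOS-positive cones of Infancy 2 and in 21.8% of the others, whose median depths were 3438 and 2933 UMIs. All 3 genes together were found in 18 cones.

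**Figure D4:**
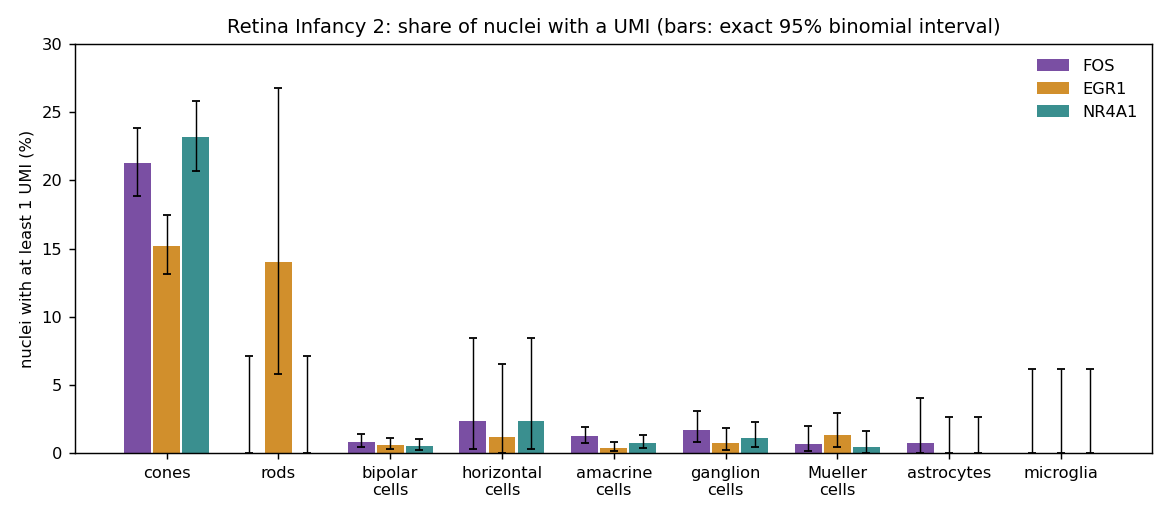
Share of nuclei of Infancy 2 with at least 1 UMI of FOS, EGR1 or NR4A1, by class. Bars start at 0 and whiskers are exact 95% binomial intervals. Cones reach 15.2 to 23.2% for all 3 genes, rods hold EGR1 in 7 of 50 nuclei, and the other classes stay at or below 2.41%.

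The cone profile of this retina was set against those of the other 14. Of the 20803 features with 50 or more UMIs in cones, 8 exceeded their highest level in any other retina by more than 3 times in Infancy 2 (0.0385%). By this ratio SLC25A36li2, a numbered copy of a mitochondrial carrier gene, came first (36.3 CPM, next 1.69, 21.5 times), before FOS (12.0 times), NR4A1 (5.88 times), EGR1 (5.27 times) and the antisense feature CRISP3-AS-1 (5.23 times). The other 3 were LINC-NSMCE4A-14, GAGli15 and CRISP2-AS-1 (3.04 to 3.18 times), and these 5 features were named after their values had been seen. FOSB and JUNB were likewise highest in the cones of Infancy 2, at 5.58 and 4.06 CPM, against up to 3.62 and 3.02 CPM elsewhere. JUN was not, at 4.31 CPM against 1.65 to 14.5 CPM. Of 26 further immediate early and stress-response genes with 50 UMIs in cones, Infancy 2 was the highest retina for 5 (19.2%, against 3.28% of all features). These were BTG2, an antiproliferative gene (29.2 CPM, next 14.5), SIK1, a salt-inducible kinase (29.2, next 22.6), BTG1 (14.5, next 13.4), DUSP1, a MAP kinase phosphatase (8.38, next 8.02) and IER2 (3.30, next 2.54). Senile 3 was the highest retina for FOSL2, EGR2, IER5L and MAFK, and Senile 1 for NR4A2, NR4A3 and DUSP5. Senile 4 was the highest for DUSP2, HOMER1 and BDNF. For 0 of the 26 did Infancy 2 exceed the next retina by more than 3 times. None of 16 inducers and partners with as many UMIs was highest in Infancy 2. The sums of other classes' markers in the cones of Infancy 2 lay inside the range of the other infant retinas, except that astrocyte and ganglion markers were the highest among infant retinas (62.2 and 305 CPM) and vascular markers the lowest (29.9 CPM). The opsin OPN1LW was at 641 CPM in them, against 442 to 519 CPM in the other infant retinas and 350 to 933 CPM in older ones.

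Of the AP-1 partners, JUNB was highest in microglia. Microglia, at 0.552% of the UMIs of the 9 classes, held 29.2% of the JUNB UMIs. Microglia of Infancy 1 to 5 had 22.4, 24.9, 49.4, 162 and 188 CPM of JUNB, those of Mature 1 to 5 had 10.7, 0, 130, 327 and 135 CPM, and those of Senile 1 to 5 had 0, 0, 19.2, 88.2 and 241 CPM. Microglia exceeded ACs, the next class, in 12 of 15 retinas, by 3.57 ± 2.96 (SD) on the scale of log2(CPM + 1) (2-sided exact sign-flip test, adjusted p = 0.0052 over 9 members). JUNB and CSRNP3 were the 2 members with a highest class above the next. No stage contrast of JUNB in microglia passed (senile change -0.04 ± 0.90, SE, adjusted p = 1.0).

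JUNB in microglia also differed with the Cell Ranger version. The 7 retinas of version 6.1.2 had at most 49.4 CPM in microglia, with 0 to 3 UMIs each, while 7 of the 8 retinas of version 7.0.1 had 88.2 CPM or more. The exception was Senile 3, with 1 UMI in 23 microglia. Microglia of the 6.1.2 retinas had median depths of 622 to 960 UMIs per nucleus, and those of the 7.0.1 retinas of 1106 to 3888 UMIs. The part of depth and of the version in the JUNB values was not tested.

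JUN and FOSB separated by version in the sum of all nuclei. JUN was 2.34 ± 0.337 CPM (SD, n = 7) under version 6.1.2 and 5.08 ± 1.87 CPM (n = 8) under 7.0.1, with ranges of 1.91 to 2.98 and 3.65 to 9.33 CPM that did not overlap. This direction of separation was shared by 3.61% of the 37678 features with 50 or more UMIs. FOSB was lower under 7.0.1, at 0.140 ± 0.0903 against 0.571 ± 0.291 CPM, with the highest 7.0.1 value (0.2693 CPM, Infancy 4) just under the lowest 6.1.2 value (0.2694 CPM, Mature 1). Separation downwards was found in 0.963% of features, and FOSB rests on 135 UMIs. In cones, which held 72.7% of the FOSB UMIs of the 9 classes, the versions overlapped. There FOSB was at 0.252 to 5.58 CPM under 6.1.2 and at 0 to 0.853 CPM under 7.0.1. The other members overlapped between versions in all nuclei. Version, sequencing depth, the mix of cell classes and any difference in how reads on introns were counted cannot be told apart here. The same holds for any other difference between these sets of libraries.

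Among classes with more UMIs, JUN was 5.54 ± 3.44 CPM (SD, n = 15) in cones and 3.04 ± 1.46 CPM in ACs, a difference that held within retinas (0.62 ± 0.47 on the scale of log2(CPM + 1), 13 of 15, adjusted p = 0.011 over 72 pairs). Microglia, Müller cells and cones, the highest classes for JUN, did not differ from each other beyond their spread. Its senile changes were -0.13 ± 0.49 (SE) in cones, 0.06 ± 0.33 in BCs and 0.38 ± 0.42 in ACs, and none passed.

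**Figure D5:**
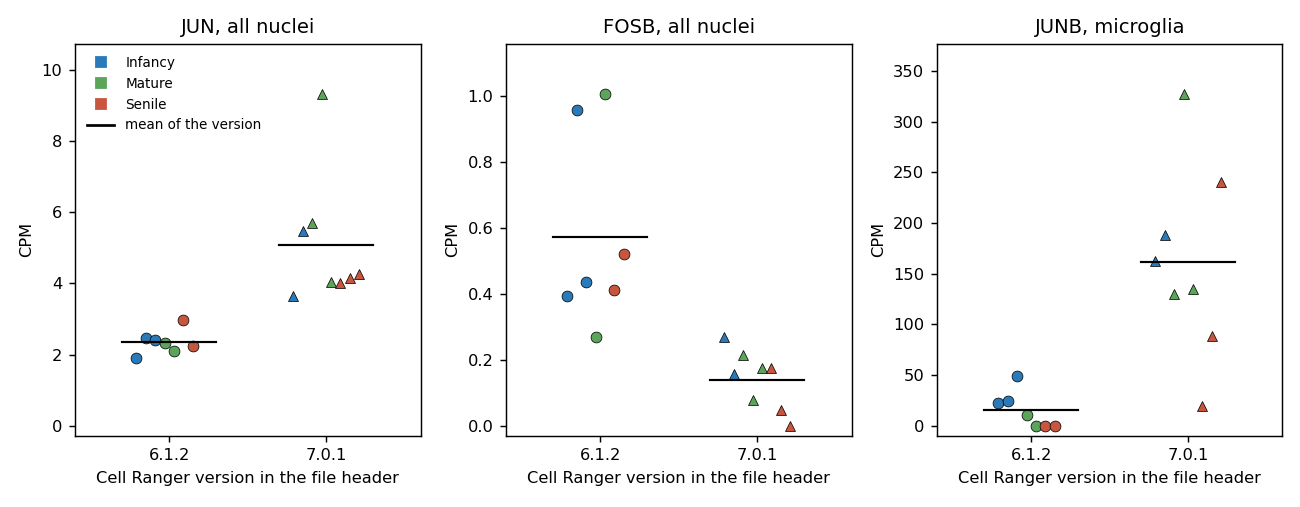
JUN and FOSB in all nuclei and JUNB in microglia, by the Cell Ranger version in the file header. The y axes are CPM, each point is 1 retina, colours give the stage and lines the mean of the version. JUN is at 1.91 to 2.98 CPM under 6.1.2 and at 3.65 to 9.33 CPM under 7.0.1, and JUNB in microglia stays at or below 49.4 CPM under 6.1.2.

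EGR1 had its highest mean of log2(CPM + 1) in BCs, which held 45.1% of its UMIs over the 9 classes. BCs of Infancy 1 to 5 had 2.24, 3.22, 1.01, 17.95 and 18.4 CPM of EGR1, those of Mature 1 to 5 had 5.92, 6.78, 12.1, 11.2 and 8.75 CPM, and those of Senile 1 to 5 had 3.81, 3.23, 4.74, 2.76 and 16.5 CPM. Infancy 4 and 5, Mature 3 to 5 and Senile 5 were high, at 8.75 CPM or more, and all came from version 7.0.1. The retinas of the other version had at most 6.78 CPM. Senile 3 and 4 were low, at 4.74 and 2.76 CPM, although they also came from version 7.0.1. The part of depth and of the version in these EGR1 values was not tested. Neither the difference from the next class (9 of 15 retinas, adjusted p = 0.23) nor a stage contrast passed (senile change -0.49 ± 0.66, SE, adjusted p = 0.97). The BCs of Infancy 2 were not among the high ones (3.22 CPM).

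FOS had its highest mean of log2(CPM + 1) in astrocytes, on 65 UMIs. Astrocytes of Infancy 1 to 5 had 12.6, 4.199, 5.34, 7.10 and 34.6 CPM of FOS, those of Mature 1 to 5 had 0, 26.6, 10.3, 87.6 and 0 CPM, and those of Senile 1 to 5 had 0, 15.3, 0, 5.22 and 93.1 CPM. Senile 5 had 25 UMIs in 18 of 67 astrocytes (26.9%, 16.8 to 39.1%), and the 87.6 CPM of Mature 4 were 7 UMIs in 22 nuclei. Astrocytes did not exceed Müller cells beyond the spread (10 of 15 retinas, adjusted p = 0.26).

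Whether the members were high in the same retinas was asked by correlating their levels with FOS in all nuclei over the 15 retinas. None of 8 relations passed after adjustment. The largest were NR4A1 (Pearson r = 0.56, permutation p = 0.046; Spearman coefficient 0.25, permutation p = 0.37) and EGR1 (r = 0.53, permutation p = 0.039; Spearman coefficient 0.45, permutation p = 0.091), each with an adjusted p of 0.18 for r and of 0.49 and 0.48 for the Spearman coefficient. Without Infancy 2 and Mature 4, the retinas farthest from the median of FOS, r fell to 0.17 for NR4A1 and 0.37 for EGR1. It was then 0.24 for JUN and 0.34 for JUNB. Without Infancy 2 alone (14 retinas), r was -0.03 for NR4A1, 0.32 for EGR1, 0.60 for JUN and 0.63 for JUNB. Within version 6.1.2 (7 retinas, Infancy 2 among them) r was 0.83 for NR4A1 and 0.81 for EGR1, and within 7.0.1 (8 retinas) it was 0.14 and 0.30. In the 6 retinas of 6.1.2 without Infancy 2, it was -0.15 and -0.02. For JUN and JUNB, r was 0.28 and 0.37 in all (permutation p = 0.30 and 0.16, adjusted p = 0.43 and 0.32), 0.26 and 0.27 within 6.1.2, and 0.86 and 0.72 within 7.0.1. Mature 4, of version 7.0.1, was the highest retina for JUN (9.33 CPM) and JUNB (5.34 CPM), and for FOS after Infancy 2 (9.57 CPM). CSRNP1, CSRNP2, CSRNP3 and FOSB had r of -0.27, -0.43, 0.14 and 0.23 (adjusted p from 0.30 to 0.62).

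The mature stage gave no call against infancy for any member (0 of 33 edgeR tests, with 4 under an unadjusted p of 0.05 and 1 called by DESeq2), where 0.99% of features were called in cones, 0.213% in rods, 0.511% in BCs, 0.126% in HCs, 0.49% in RGCs, 0.294% in ACs, 0.564% in Müller cells, 0.242% in astrocytes, 0.0516% in microglia and 0.459% in all nuclei. DESeq2 called 1.82% of the features in cones. The senile stage gave none against the mature stage (0 of 33, with 1 under an unadjusted p of 0.05 and 0 called by DESeq2), where edgeR called 0.0% of features in every class and DESeq2 47 features over the 9 classes. CSRNP3 in BCs was nearest in that contrast, at -0.36 ± 0.13 (SE, adjusted p = 0.64). The unadjusted counts stand without the share of all features under 0.05, so they are not read as an excess.

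A list of 67 related genes, 65 of them in the files, gave no call either. For the 46 other immediate early and stress-response genes, 44 of them in the files, 127 tests of a gene in a class or in all nuclei were possible per contrast. None was called, and 8 were under an unadjusted p of 0.05 for senile against infant retinas, 3 for mature against infant and 2 for senile against mature ones. Of the 21 inducers and partners, such as SRF, CREB1 and the MAP kinases, 131 tests per contrast gave none, with 5, 4 and 6 under 0.05 unadjusted. These unadjusted counts likewise stand without the share of all features under 0.05. In cones the median senile change was -0.12 on the log2 scale over the 18 tested genes of the first list and -0.02 over the 16 of the second, against -0.01 over all features tested. DUSP4 and SGK1 were not analysed here.

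The features whose level was most like that of CSRNP3 over 134 sums of a class in a retina were NOVA1, a neuronal splicing factor (r = 0.81), PDE4DIP (0.78), PRUNE2 (0.77), SCN3A, a sodium channel subunit (0.77), and TMTC2 (0.76), out of 9059 candidates. The likeness was lower for CSRNP1 (FSCN1, TMEM131, ARID3A, PDK3 and SUSD1, r from 0.51 to 0.56) and lowest for FOS (LRRC75B, SHROOM3, CERS1, LGI4 and KIAA1217, r from 0.43 to 0.45). The points share libraries and classes, so these are descriptions, and those of the sparse genes are weak.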

How the data were processed

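Raw UMI counts per feature and barcode were used as deposited. The authors made them with Cell Ranger on the TS_3.0 assembly, without normalization. The submitters' processing notes name version 5.0.1, the methods version 7.0 and the file headers 6.1.2 or 7.0.1. Intron counting is not stated, and its default changed among these releases. The labels name a v2 protocol and the methods v3.1. The members and lists were chosen with earlier results of these data known.

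Kept barcodes had over 200 genes, under 6000 genes and a mitochondrial share below 5%. Each marker was scaled within a retina and averaged per class. A class was assigned to a nucleus with a scaled score above 0.4, a lead of 0.3 over the next class and at least 2 markers, which left 34546 nuclei unassigned for a low score and 13899 for a small lead. No doublet caller was run. Nuclei with a small lead were left out. Whether this removed mixtures was not tested, and kept RGCs had a median of 8 UMIs of bipolar markers beside 12 of their own. The sums of each class in each retina were fitted with edgeR 4.0.16 (R 4.3.3; TMM, filterByExpr, quasi-likelihood test) on stage over all features, with Benjamini-Hochberg adjustment within the class. The authors modelled single nuclei with age and sex, which the labels do not give per retina. Classes were compared by 2-sided exact sign flips. Correlations used 100000 permutations. On data simulated for cones (15259 features), the fit found 78% of 4-fold and 20% of 2-fold changes, with 9 false calls. Python 3.11.15 and DESeq2 1.42.0 were also used. By rule all members were named, of the related list only called genes, and the 5 features most like CSRNP3, CSRNP1 and FOS. Genes of that list named for Infancy 2, JUN and FOSB by version and the cones without other markers were chosen after the values had been seen. ATF3 has no UMI, so adjustment ran over 9 and 8 members where 10 and 9 had been planned.

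The labels do not say what the replicate numbers stand for. Deviations of same-numbered retinas from their stage means correlated between -0.44 and 0.61 over 15 pairs, and those of 60 other pairs between -0.75 and 0.66. Among the 15, only Infancy 3 with Mature 3 and Mature 3 with Senile 3 were negative. Of the 15 pairs, 13 also shared a Cell Ranger version, so number and version cannot be told apart in them. The numbers were not taken as pairs in the main fit, and a block on them was run as an alternative.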

Additional observations from a re-analysis of the deposited data

Results flagged for a closer look

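In each stage, a retina was set against the other 4 where a member had 50 or more UMIs in the class. In 27 of 159 such groups 1 retina stood apart by Dixon's test, which flags about 1 in 20 by chance among independent groups of normal values. CPM from few UMIs need not be normal, and groups of all nuclei include the nuclei of the classes. The 27 are thus given as a list and not as an excess over that rate. In Infancy 2, cones stood apart for FOS (73.1 CPM, the others up to 6.07), EGR1 (49.0, up to 9.29), NR4A1 (82.0, up to 13.9) and FOSB (5.58, up to 1.65), and with them all nuclei for FOS (14.9 CPM) and NR4A1 (14.8 CPM). In Mature 2, cones stood apart for NR4A1 (9.79 CPM, the others up to 1.38) and FOSB (3.62), all nuclei for NR4A1 (2.79 CPM) and FOSB (1.01), and BCs for CSRNP1 (3.23, on 10 UMIs). In Senile 5, EGR1 was 16.5 CPM in BCs (the others up to 4.74), FOS 93.1 CPM in astrocytes, and JUNB 3.02 CPM in cones and 4.54 CPM in all nuclei. In Senile 2, FOS was 7.54 CPM in BCs and 4.75 CPM in ACs, on 7 and 9 UMIs, and in Mature 4 it was 7.82 CPM in ACs and 9.57 CPM in all nuclei. In Infancy 5, FOS was 34.6 CPM in astrocytes, CSRNP3 421 CPM (the others 310 to 325) and JUN 8.55 CPM in RGCs, and CSRNP1 low at 1.54 CPM in all nuclei. The remaining ones were CSRNP2 in the ACs of Senile 4 (11.9 CPM, low) and the RGCs of Mature 5 (23.9), JUNB in the RGCs of Mature 3 (3.31) and FOS in the Müller cells of Infancy 3 (9.82). No explanation of these was tested.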

How the results depend on the processing

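The number of members called for senile against infant retinas was 1, and became 3 without the filter on low counts, 2 with the Cell Ranger version as a term (NR4A1 in cones added, adjusted p = 0.042), 4 with DESeq2 (EGR1 in cones and NR4A1 in cones and all nuclei added), and 0 within version 7.0.1 or within 6.1.2. With each retina left out in turn it was 0 to 1. For mature against infant retinas it was 0, and became 3 without the filter, 1 with DESeq2 and 1 with the replicate number as a block (NR4A1 in cones, adjusted p = 0.0496). With a retina left out it stayed at 0. The calls of FOS, EGR1 and NR4A1 under these alternatives were lost without Infancy 2, a combination chosen after seeing the data. For senile against mature retinas it was 0 under every alternative run. The block kept the 1 call for senile against infant retinas. Features called over the 9 classes were 761 for senile against infant retinas (1815 without the filter, 1262 with DESeq2, 310 within 7.0.1), 426 for mature against infant (1288, 977 and 126, 702 with the version as a term, 727 within 6.1.2, 274 without Infancy 4) and 0 for senile against mature (215, 47 and 1, 6 with the version as a term, 2 with the block, 1 with a stricter gate, 15 within 6.1.2, 5 without Mature 1, 1 without Mature 2, 2 without Senile 3). The fitted senile change of CSRNP3 in cones was -1.48, -2.09 within 6.1.2, -0.98 within 7.0.1, and -1.69 to -1.31 with a retina left out. No result recomputed in this way changed direction. FOS in cones had no adjusted p from DESeq2 and was filtered out within 7.0.1, and CSRNP3 in microglia had no adjusted p from DESeq2. In each alternative run 2 members had a highest class above the next, and 0 correlations with FOS passed with either of 2 other scales. In the simulation for cones, 20% of 2-fold changes were found, so many changes of that size would be missed, and the cause of the differences between settings was not tested.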

Other observations

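The files list 3 antisense features of CSRNP3 beside the gene. In all nuclei, CSRNP3-AS-1 ranged from 2.23 to 7.33 CPM in the retinas of Cell Ranger 6.1.2 and from 3.37 to 22.3 CPM in those of 7.0.1. In cones it was highest in Infancy 5, at 7.73 CPM, and no retina of any stage exceeded that. Whether the counting kept strands apart where features overlap is not given in the sources used here.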
